A study of Bos taurus with 15 samples.

Results

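In bovine fetal fibroblasts (BFFs), 105 genes stood higher with wild-type (WT) ARGFX than with a control plasmid while LEUTX left their mean near the control level. They were chosen on mean CPM (a gene's expected count divided by the total of its sample, times 1e+06). The control mean had to be at least 5 CPM, the WT ARGFX mean at least 1.5 times the control mean, the LEUTX mean at least 0.8 times the control mean and the control mean at least 0.8 times the LEUTX mean. ARGFX itself and the fibroblast markers COL1A1, COL1A2 and COL3A1 were left out. The table holds 21665 genes, of which 10258 had a control mean of at least 5 CPM, so the members are 1.02% of the genes at that level. All 105 passed the filter on low counts, and 35 of them have a symbol in the sources used here.

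ARGFX and LEUTX are PRD-class homeobox genes of the ETCHbox group, which arose in placental mammals from copies of CRX and are expressed in the early embryo. Their products are transcription factors that bind DNA through a homeodomain and raise or lower the transcription of target genes. Fibroblasts do not normally use them, and are known for laying down collagens, laminins and proteoglycans and for gripping that matrix through integrins and a contractile actin skeleton.

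The 15 samples were RNA-seq libraries from primary cells of the torso skin of a 6-month fetus, at passage 4, whose own ARGFX alleles were WT. Cells were electroporated with an empty pSF-CMV-Puro-COOH plasmid (control, 4 samples) or with the same plasmid carrying WT ARGFX (4 samples), mutant ARGFX (3 samples) or LEUTX (4 samples) behind the constitutive CMV promoter. Each gene ended in a peptide linker and a 3xFLAG tag, all groups received puromycin at 4 µg/mL, and RNA was taken at 72 h. All cells came from 1 animal, so the p-values measure the spread between transfections of its cells, not between animals. A further mutant sample, which the authors removed because it grouped with WT ARGFX in a principal component analysis, is not analysed here. The mutant insert encodes a short protein with no homeodomain, because the loss of 13 bases changes the reading frame from there on. The stretch around the deletion is shown because the mutant samples give the comparison that the choice of genes did not use. The capitals mark the bases that the mutant lacks, bases 97 to 109 of the insert counted from the A of its ATG.
WT ARGFX insert, bases 76 to 123: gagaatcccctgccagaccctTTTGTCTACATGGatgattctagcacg
mutant ARGFX insert: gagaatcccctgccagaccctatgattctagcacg

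The total expected count per sample was 25947911 to 28163565 in the control group, 31359218 to 35178524 with WT ARGFX, 28519622 to 41554242 with mutant ARGFX and 26917853 to 35454192 with LEUTX. ARGFX reached 3424 ± 720 CPM (SD, n = 4) with WT ARGFX and 5462 ± 1592 CPM (SD, n = 3) with mutant ARGFX, and at most 1 expected count in a control sample. CPM is not corrected for transcript length and the mutant insert is much shorter, so these values do not compare numbers of transcripts between the groups. LEUTX averaged 1480 ± 203 CPM (SD, n = 4) where its own plasmid was given. The fibroblast markers were abundant in every sample. COL1A1, a chain of type I collagen, averaged 12429 CPM in the control group, 20967 with WT ARGFX, 16324 with mutant ARGFX and 14513 with LEUTX. COL1A2, the other chain of type I collagen, averaged 12289, 20904, 17085 and 16572 CPM in the same order. COL3A1, the chain of type III collagen, averaged 2859, 5538, 4310 and 1750 CPM in the same order. In bulk RNA, fewer cells of a type and less RNA per cell cannot be told apart. None of the 14 markers fixed for other cell types (keratinocytes, endothelium, leukocytes, melanocytes, muscle, adipocytes) could be matched to an identifier, and they were not analysed here.

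The members were followed sample by sample. The median over the members of the log2 ratio of CPM to the control mean was 0.09, -0.21, 0.10 and -0.09 in control replicates 1 to 4. It was 0.73 and 0.83 in WT ARGFX replicates 1 and 2, and 0.77 and 0.45 in a pair of WT ARGFX samples that share one column header and are called A and B. It was 0.49, 0.33 and 0.63 in mutant ARGFX replicates 1 to 3, and 0.22, 0.13, -0.02 and -0.15 in LEUTX replicates 1 to 4. All 3 mutant medians therefore lay above all control and LEUTX medians, and below those of WT ARGFX 1, 2 and A, while B fell among them in CPM. With TMM factors applied, the scale of the tests, the median was 0.61 in B against 0.53, 0.39 and 0.59 in mutant ARGFX replicates 1 to 3, so all 4 WT ARGFX medians then lay above the mutant ones. The CPM exceeded the control mean for 104, 101 and 104 of the 105 members in mutant ARGFX replicates 1 to 3. Group means were -0.03 ± 0.15 for control, 0.69 ± 0.17 for WT ARGFX, 0.48 ± 0.15 for mutant ARGFX and 0.05 ± 0.16 for LEUTX (SD over samples).

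**Figure D1:**
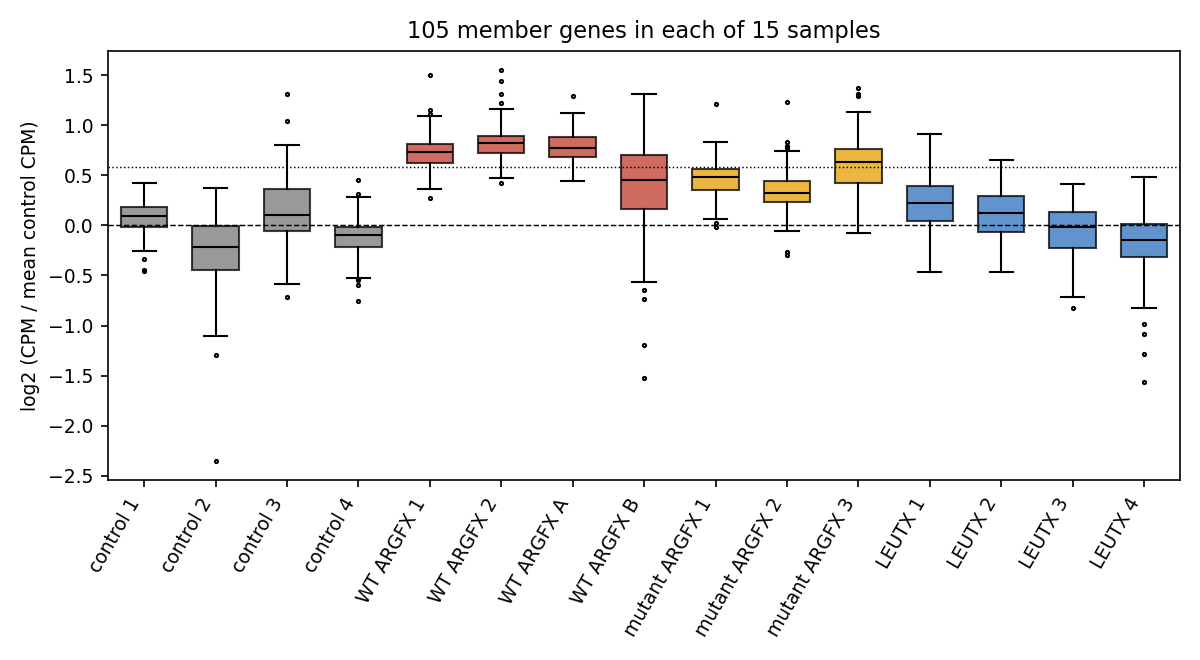
Log2 ratio of CPM to the control mean (vertical axis) for the 105 members in each of the 15 samples (horizontal axis). Boxes span the quartiles with the median as a line, whiskers reach the last gene within 1.5 box lengths, points are genes beyond them, the dashed line is the control mean and the dotted line a ratio of 1.5. The 3 mutant ARGFX medians (0.33 to 0.63) sit above all control and LEUTX medians, and WT ARGFX B (0.45) sits below the other WT ARGFX samples.

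WT ARGFX sample B stood apart from its group. It was the lowest of the 4 WT ARGFX samples for 70 members (66.7%, against 51.9% of all genes with a control mean of at least 5 CPM), and at or below the highest control sample for 34 members. Without it the rule would pick 200 genes, 97 of them among the 105, and without control replicate 3 it would pick 166, with 69 among the 105. In each of the 4 groups the sample with the fewest genes detected also had the lowest member median: control replicate 2 (15397 genes), WT ARGFX B (15609), mutant ARGFX replicate 2 (15748) and LEUTX replicate 4 (15932). The part of detection in these medians was not tested. ARGFX itself did not order the mutant samples in the same way, at 6242, 6514 and 3631 CPM in replicates 1 to 3.

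The values that chose the members are given as a description. WT ARGFX means were 1.501 to 2.45 times control with a median of 1.59, and 57 members lay under 1.6 times, so most sat close to the limit. Only 3 members were at 2 times or more, among them ITGA11 (2.45) and INKA1 (2.11). LEUTX means were 0.804 to 1.24 times control with a median of 1.04. After TMM normalization, which allows for a few genes taking a larger share of a library, the median LEUTX vs control log2 fold change of the members was 0.14, against -0.04 over genes with a control mean of at least 5 CPM. On that scale 85 of the 105 were positive, whereas 61 had a LEUTX mean above the control mean in CPM. Values of this log2 fold change for named members included 0.40 for HTATIP2, 0.38 for UGGT2 and 0.36 for WIPI1 and for CLIP2. They also included 0.35 for EML1 and for BRD3, 0.34 for CNTROB, 0.33 for MMP28, 0.32 for ESYT2 and 0.28 for RASA3. The named members below 0 were ANXA8L1 and PLK4 (both -0.19), CDC42EP5 (-0.18), PRR11 and FMOD (both -0.17), SUOX (-0.07) and ALDH1L2 (-0.05). Levels were modest. The control mean ran from 5.02 to 1031 CPM with a median of 15.3, against 32.4 for all genes at that level, and 6 members exceeded 100 CPM, FMOD and LAMA4 among them.

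The members just inside and just outside each limit had close values. ACOT2, a mitochondrial thioesterase that splits long-chain acyl-CoA, entered with a control mean of 5.02 CPM, whereas SOX12 (4.94) and LENG9 (4.92) did not. HTATIP2, an oxidoreductase first described as a partner of the HIV Tat protein, entered with LEUTX at 1.24 times control. CIT, the citron kinase of cytokinesis, stayed out with LEUTX at 0.786 times control. At the limit on WT ARGFX the last gene inside stood at 1.501 times control and the first outside at 1.497.

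With mutant ARGFX, 19 of the 105 members rose at an adjusted p under 0.05 and a fold change over 1.5 (edgeR's quasi-likelihood test, Benjamini-Hochberg adjustment over 14264 genes), which is 18.1%. Among all genes with a control mean of at least 5 CPM the share was 0.926%. None of the 105 fell, where 2.72% of the genes at that level did, and none was lower even at an unadjusted p under 0.05. At the adjusted p alone, 47 members rose, against 4.96% of the genes at that level. The median log2 fold change of the members was 0.50 (quartiles 0.39 and 0.61, range 0.03 to 1.17) and that of all genes at that level 0.00. The mean with mutant ARGFX lay above the control mean for all 105, as it did for 47.2% of the genes at that level. Every mutant sample exceeded every control sample for 60 members (57.1%, against 10.3%). This comparison shares its control samples with the choice of members. Without mutant ARGFX replicate 3, 12 members rose past both thresholds, and without control replicate 3, 30 did.

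**Figure D2:**
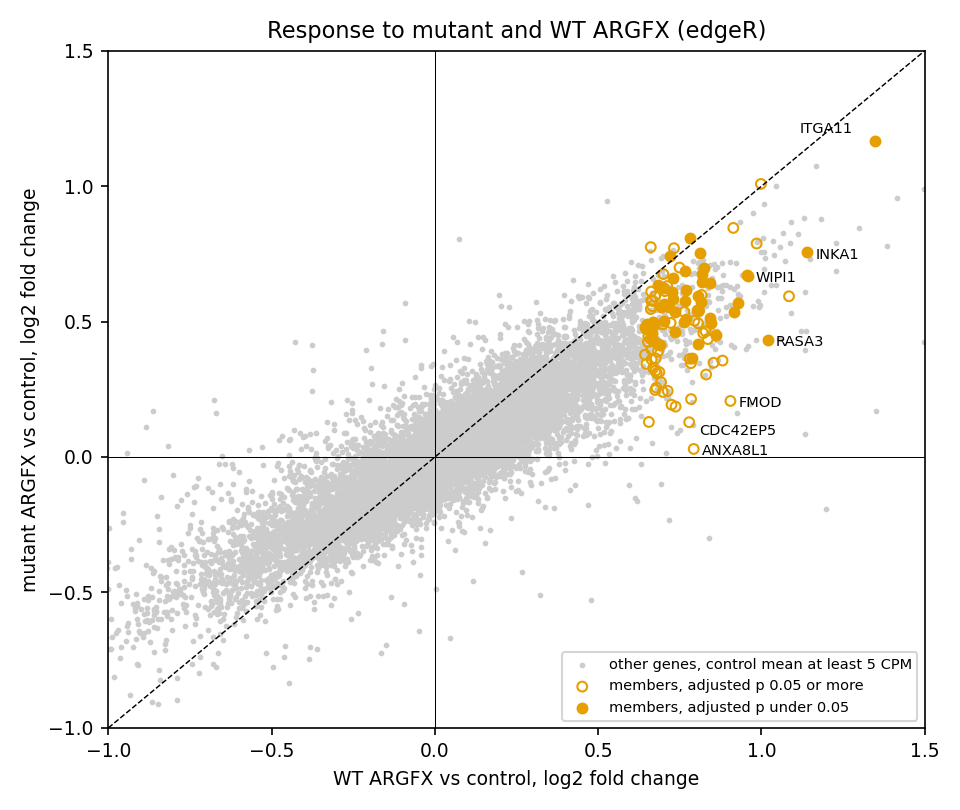
Log2 fold change against control with mutant ARGFX (vertical axis) and with WT ARGFX (horizontal axis), from edgeR, for the 105 members (orange, filled at an adjusted p under 0.05 with mutant ARGFX) and the other genes with a control mean of at least 5 CPM (grey) that fall within the axes. Both axes share the control samples, the dashed line marks equal values, and the members run from ANXA8L1 at 0.03 to ITGA11 at 1.17 with mutant ARGFX.

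Set against LEUTX, a contrast with no control samples in it although the choice of members used the LEUTX samples, 18 members (17.1%) were higher with mutant ARGFX past both thresholds and none was lower, also at an unadjusted p under 0.05 (edgeR's quasi-likelihood test, adjusted p). LEUTX moved many genes in these cells, and 11.4% of the genes with a control mean of at least 5 CPM were higher and 8.32% lower in the same contrast, so the members' share stood closer to that of other genes here than in the contrast with control. At the adjusted p alone it was 40 members, against 22.4% of the genes at that level. The median log2 fold change was 0.35 (range -0.20 to 0.96) against 0.03, and 96 members were positive. Every mutant sample exceeded every LEUTX sample for 56 members (53.3%, against 34.9%). Without LEUTX replicate 3 or replicate 4 the count past both thresholds was 10, and without mutant ARGFX replicate 3 it was 11.

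Mutant and WT ARGFX means are set side by side as a description, since the WT samples chose the genes. The mutant mean was 1.01 to 2.20 times control with a median of 1.40. It exceeded the WT ARGFX mean for 6 members, none of which has a symbol. In all 6, WT ARGFX B was the lowest WT ARGFX sample, and the mutant mean lay below the mean of WT ARGFX 1, 2 and A.

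The genes of the matrix and of its attachment included the member with the highest fold change in either ARGFX group. ITGA11, the alpha 11 integrin chain with which fibroblasts bind fibrillar collagen, stood at 10.8, 7.81, 10.5 and 7.36 CPM in the control samples, at 25.8, 26.7, 22.4 and 14.5 with WT ARGFX (replicates 1 and 2, then A and B), at 21.1, 21.5 and 17.7 with mutant ARGFX and at 10.8, 11.2, 9.17 and 8.07 with LEUTX. Neither ARGFX group overlapped control or LEUTX, and WT ARGFX B lay below all mutant samples. With mutant ARGFX it rose by a log2 fold change of 1.17 ± 0.18 (SE; edgeR adjusted p = 0.00064), and it stood 0.96 ± 0.18 above LEUTX (edgeR adjusted p = 0.000372).

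LAMA4, the laminin alpha 4 chain of basement membranes, was much more abundant, at 312, 192, 309 and 235 CPM in the control samples, 479, 475, 470 and 319 with WT ARGFX, 356, 355 and 383 with mutant ARGFX and 354, 355, 265 and 210 with LEUTX. The mutant samples all exceeded the control samples but overlapped LEUTX replicate 2, and the difference from control missed the threshold (log2 fold change 0.50 ± 0.18 SE; edgeR adjusted p = 0.0834). Without WT ARGFX B its edgeR adjusted p was 0.0438, without LEUTX replicate 4 it was 0.0493, and with DESeq2 on all samples the adjusted p was 0.0455.

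FMOD, fibromodulin, a small proteoglycan that binds collagen fibrils, behaved differently in the ARGFX groups. It stood at 308, 285, 317 and 240 CPM in the control samples and at 554, 554, 491 and 467 with WT ARGFX. It stood at 347, 327 and 306 with mutant ARGFX and at 247, 260, 225 and 224 with LEUTX. The mutant samples overlapped the control samples and lay below every WT ARGFX sample (log2 fold change against control 0.21 ± 0.10 SE; edgeR adjusted p = 0.214), while they were higher than LEUTX by 0.38 ± 0.10 (edgeR adjusted p = 0.00764). MMP28, epilysin, a secreted matrix metalloproteinase, averaged 50.3 ± 10.2 CPM in control and 70.4 ± 4.39 with mutant ARGFX (SD; log2 fold change 0.50 ± 0.15 SE; edgeR adjusted p = 0.0386). Leaving out any of 6 samples (control replicate 3 or 4, WT ARGFX A, or mutant replicate 1, 2 or 3) moved that adjusted p above 0.05, to 0.130 at most. Against LEUTX, which averaged 59.4 ± 1.97 CPM (SD), MMP28 did not pass (0.17 ± 0.15 SE; edgeR adjusted p = 0.388).

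**Figure D3:**
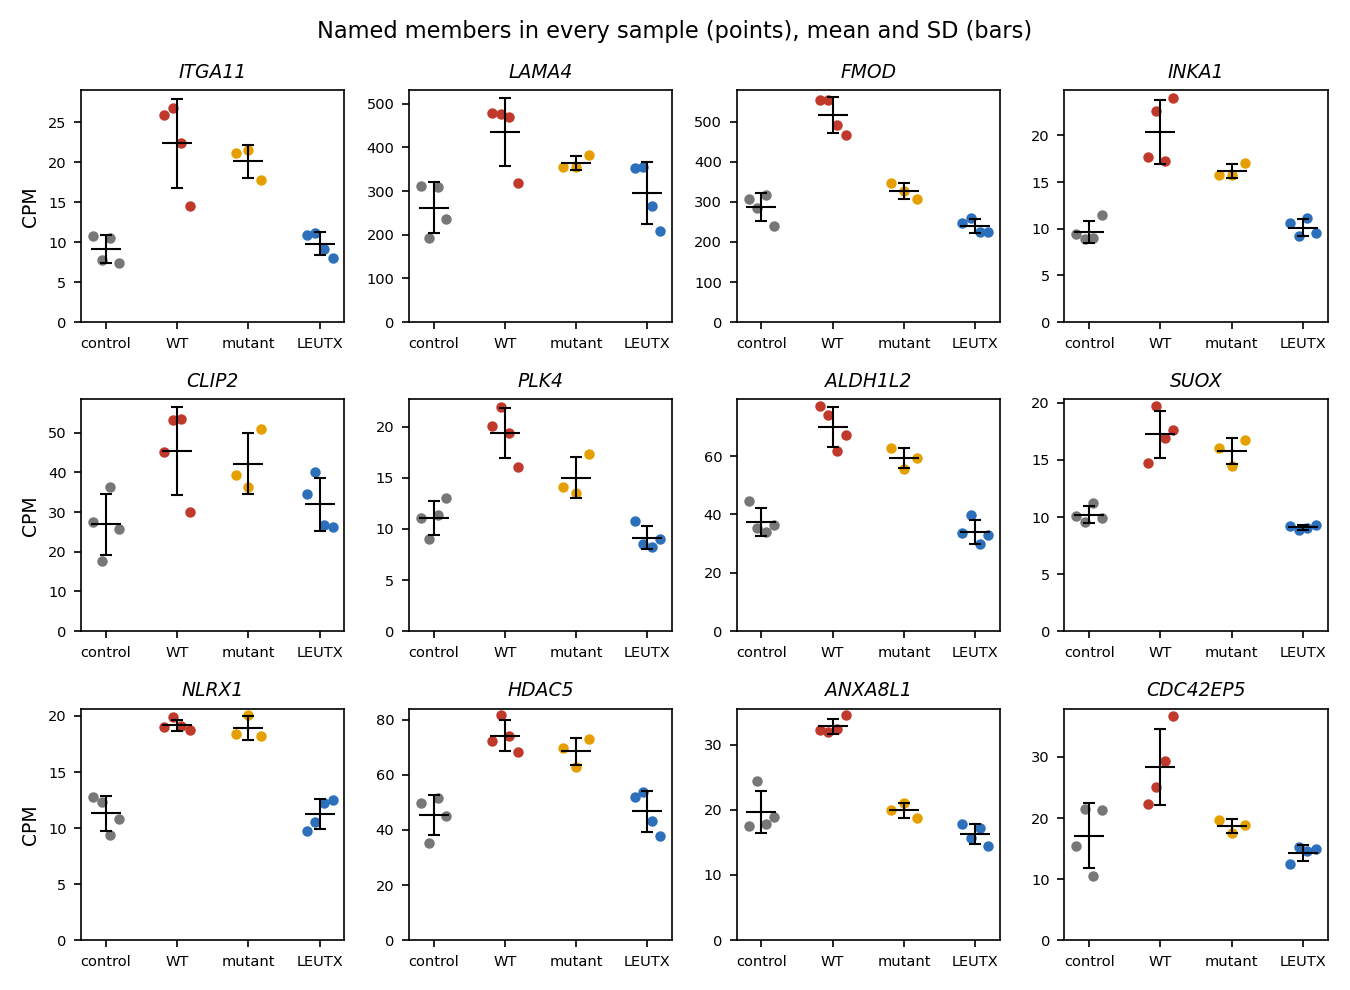
CPM (vertical axis, from 0) of 12 named members in the control, WT ARGFX, mutant ARGFX and LEUTX samples (horizontal axis), each point a sample, with the mean as a bar and the SD as an error bar. The mutant points of NLRX1 and INKA1 lie clear of control, while those of ANXA8L1 and FMOD reach into the control range.

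INKA1, an inhibitor of the kinase PAK4, stood at 9.41, 8.88, 8.99 and 11.4 CPM in the control samples, 17.7, 22.6, 17.2 and 24.0 with WT ARGFX, 15.8, 15.7 and 17.0 with mutant ARGFX and 10.6, 9.27, 11.1 and 9.50 with LEUTX. Both ARGFX groups lay clear of control and LEUTX, and it rose with mutant ARGFX by 0.76 ± 0.14 (log2 fold change, SE; edgeR adjusted p = 0.00298). ARHGEF25, a guanine nucleotide exchange factor, averaged 19.96 ± 1.96 CPM in control, 29.4 ± 3.09 with mutant ARGFX and 36.5 ± 2.37 with WT ARGFX (SD), and rose with the mutant by 0.57 ± 0.12 (SE; edgeR adjusted p = 0.00542).

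RASA3, a GTPase-activating protein that switches off Ras and Rap, stood at 26.8, 21.1, 28.1 and 24.7 CPM in the control samples, 51.7, 54.8, 49.2 and 40.3 with WT ARGFX, 36.2, 29.5 and 34.7 with mutant ARGFX and 32.0, 28.6, 28.9 and 24.8 with LEUTX. Its mutant samples lay between control and WT ARGFX without overlap, and shared their range with LEUTX. It rose with the mutant by 0.43 ± 0.10 (log2 fold change, SE; edgeR adjusted p = 0.0146), which became 0.0872 without mutant replicate 1 and 0.0569 without mutant replicate 3. CDC42EP5, an effector of Cdc42 that organizes septins, varied widely among control samples, at 15.5, 21.4, 10.4 and 21.2 CPM. It stood at 22.3, 25.04, 29.4 and 36.6 CPM with WT ARGFX and at 19.7, 17.5 and 18.9 with mutant ARGFX. The mutant values fell inside the control range (log2 fold change 0.13 ± 0.23 SE; edgeR adjusted p = 0.777).

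EML1, a protein that binds and organizes microtubules, averaged 23.9 ± 1.98 CPM in control and 35.1 ± 2.59 with mutant ARGFX (SD), and rose by 0.57 ± 0.11 (log2 fold change, SE; edgeR adjusted p = 0.00364). Against LEUTX, which averaged 28.4 ± 3.07 CPM (SD), it did not pass (0.23 ± 0.11 SE; edgeR adjusted p = 0.118). CLIP2, a linker protein at microtubule ends, stood at 27.6, 17.8, 36.3 and 25.8 CPM in the control samples, 45.0, 53.2, 53.4 and 29.9 with WT ARGFX, 39.4, 36.2 and 51.0 with mutant ARGFX and 34.5, 40.0, 26.8 and 26.3 with LEUTX. Control replicate 3 reached the lowest mutant sample, and the edgeR adjusted p of 0.0421 (log2 fold change 0.68 ± 0.20 SE) rose above 0.05 on leaving out any of 9 samples (control replicate 1, 2 or 4, WT ARGFX replicate 1, any mutant sample, or LEUTX replicate 1 or 3), to 0.197 at most.

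PLK4, the kinase that starts centriole duplication, stood at 11.03, 9.02, 11.3 and 13.0 CPM in the control samples, 20.1, 21.97, 19.4 and 16.1 with WT ARGFX, 14.1, 13.6 and 17.3 with mutant ARGFX and 10.8, 8.51, 8.26 and 9.02 with LEUTX. Its mutant samples exceeded all control and LEUTX samples, by a log2 fold change of 0.45 ± 0.12 over control (SE; edgeR adjusted p = 0.0282) and of 0.64 ± 0.12 over LEUTX (edgeR adjusted p = 0.000594). Leaving out control replicate 1, 2 or 3 or mutant replicate 1 or 3 moved the first adjusted p above 0.05, to 0.157 at most. PRR11, a proline-rich protein of dividing cells, and CNTROB, centrobin, a protein of daughter centrioles, had log2 fold changes of 0.46 ± 0.17 and 0.60 ± 0.22 (SE) over control that missed the threshold (edgeR adjusted p = 0.105 and 0.0976). For PRR11 the edgeR adjusted p was 0.0402 without WT ARGFX B, 0.0483 in a fit to the mutant and control samples alone and 0.0495 in a fit without a block to the samples that have a replicate number.

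ALDH1L2 and SUOX, the members in the list of amino acid, one-carbon and mitochondrial metabolism, both rose with mutant ARGFX. ALDH1L2, the mitochondrial 10-formyltetrahydrofolate dehydrogenase of one-carbon metabolism, stood at 44.6, 35.3, 34.0 and 36.2 CPM in the control samples, 77.0, 74.1, 61.6 and 67.1 with WT ARGFX, 62.6, 55.7 and 59.3 with mutant ARGFX and 33.6, 39.8, 29.9 and 32.8 with LEUTX. Neither ARGFX group overlapped control or LEUTX, and the gene rose with the mutant by 0.67 ± 0.12 over control (log2 fold change, SE; edgeR adjusted p = 0.00241) and stood 0.72 ± 0.12 above LEUTX (edgeR adjusted p = 0.000171).

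SUOX, sulfite oxidase, the last step in breaking down sulfur amino acids, stood at 10.1, 9.59, 11.3 and 9.90 CPM in the control samples, 14.7, 19.8, 16.9 and 17.6 with WT ARGFX, 16.1, 14.5 and 16.7 with mutant ARGFX and 9.18, 8.89, 8.998 and 9.33 with LEUTX. The mutant range overlapped that of WT ARGFX alone, with a log2 fold change of 0.65 ± 0.10 over control (SE; edgeR adjusted p = 0.000524). NLRX1, a mitochondrial protein of the NOD-like receptor family that dampens antiviral signalling, stood at 12.8, 12.3, 9.37 and 10.8 CPM in the control samples, 19.0, 19.9, 19.1 and 18.7 with WT ARGFX, 18.4, 20.1 and 18.2 with mutant ARGFX and 9.73, 10.5, 12.2 and 12.5 with LEUTX. Mutant and WT ARGFX samples interleaved, and the rise with the mutant was 0.75 ± 0.13 (log2 fold change, SE; edgeR adjusted p = 0.0015). ACOT2 and HTATIP2 did not pass the test, at 0.30 ± 0.21 and 0.36 ± 0.16 (log2 fold change, SE; edgeR adjusted p = 0.39 and 0.178).

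Further named members belong to none of the gene lists. WIPI1, a phosphoinositide-binding protein of the forming autophagosome, stood at 23.1, 25.3, 21.5 and 19.7 CPM in the control samples, 40.5, 41.5, 45.2 and 40.3 with WT ARGFX, 36.2, 33.2 and 36.2 with mutant ARGFX and 28.8, 30.2, 23.7 and 25.5 with LEUTX. Control and LEUTX overlapped, the mutant samples overlapped no other group, and the gene rose with the mutant by 0.67 ± 0.11 over control (log2 fold change, SE; edgeR adjusted p = 0.00103). INPP5B, a phosphatase that removes the 5-phosphate of phosphoinositides, rose by 0.69 ± 0.12 (SE; edgeR adjusted p = 0.00191), from 10.3 ± 1.80 CPM in control to 16.3 ± 2.54 with mutant ARGFX (SD), beside 16.7 ± 2.04 with WT ARGFX.

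ESYT2, a tether between the endoplasmic reticulum and the plasma membrane, rose with the mutant by 0.51 ± 0.10 (log2 fold change, SE; edgeR adjusted p = 0.00515). UGGT2, a folding sensor for glycoproteins of the endoplasmic reticulum, rose by 0.54 ± 0.12 (SE; edgeR adjusted p = 0.00895). Against LEUTX neither ESYT2 (0.19 ± 0.10 SE; edgeR adjusted p = 0.157) nor UGGT2 (0.16 ± 0.12 SE; edgeR adjusted p = 0.308) passed. PHETA2, a partner of the phosphatase OCRL in endosome traffic, averaged 5.49 ± 1.28 CPM in control and 7.66 ± 0.496 with mutant ARGFX (SD). With mutant ARGFX it passed the adjusted p narrowly and stayed under a fold change of 1.5 (log2 fold change 0.50 ± 0.15 SE; edgeR adjusted p = 0.0491), and leaving out any of 13 of the 15 samples, all but control replicate 1 and WT ARGFX B, moved the adjusted p above 0.05, to 0.155 at most. ANXA8L1, an annexin that binds membranes in the presence of calcium, stood at 17.6, 24.4, 17.9 and 18.8 CPM in the control samples, 32.3, 32.0, 32.4 and 34.5 with WT ARGFX, 19.99, 21.04 and 18.7 with mutant ARGFX and 17.8, 15.7, 17.2 and 14.5 with LEUTX. WT ARGFX alone lay apart, and the mutant samples sat among the controls (log2 fold change 0.03 ± 0.13 SE; edgeR adjusted p = 0.917).

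HDAC5, a class II histone deacetylase, stood at 49.7, 35.4, 51.6 and 45.1 CPM in the control samples, 72.5, 81.8, 74.2 and 68.3 with WT ARGFX, 69.7, 63.0 and 72.9 with mutant ARGFX and 52.1, 53.8, 43.4 and 37.9 with LEUTX. The ARGFX groups overlapped in part and both lay above control and LEUTX, and the rise with the mutant was 0.62 ± 0.12 (log2 fold change, SE; edgeR adjusted p = 0.00368). BRD3, a bromodomain protein that reads acetylated histones, varied more, with 8.82 ± 2.99 CPM in control and 12.5 ± 3.23 with mutant ARGFX (SD), and did not pass (log2 fold change 0.54 ± 0.26 SE; edgeR adjusted p = 0.205). NYNRIN, a gene related to a retroviral integrase, stood at 18.3, 18.1, 18.9 and 17.3 CPM in the control samples and 31.6, 26.6 and 28.8 with mutant ARGFX. Control was tight and did not overlap the mutant samples, and NYNRIN rose by 0.70 ± 0.13 (log2 fold change, SE; edgeR adjusted p = 0.0027).

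**Figure D4:**
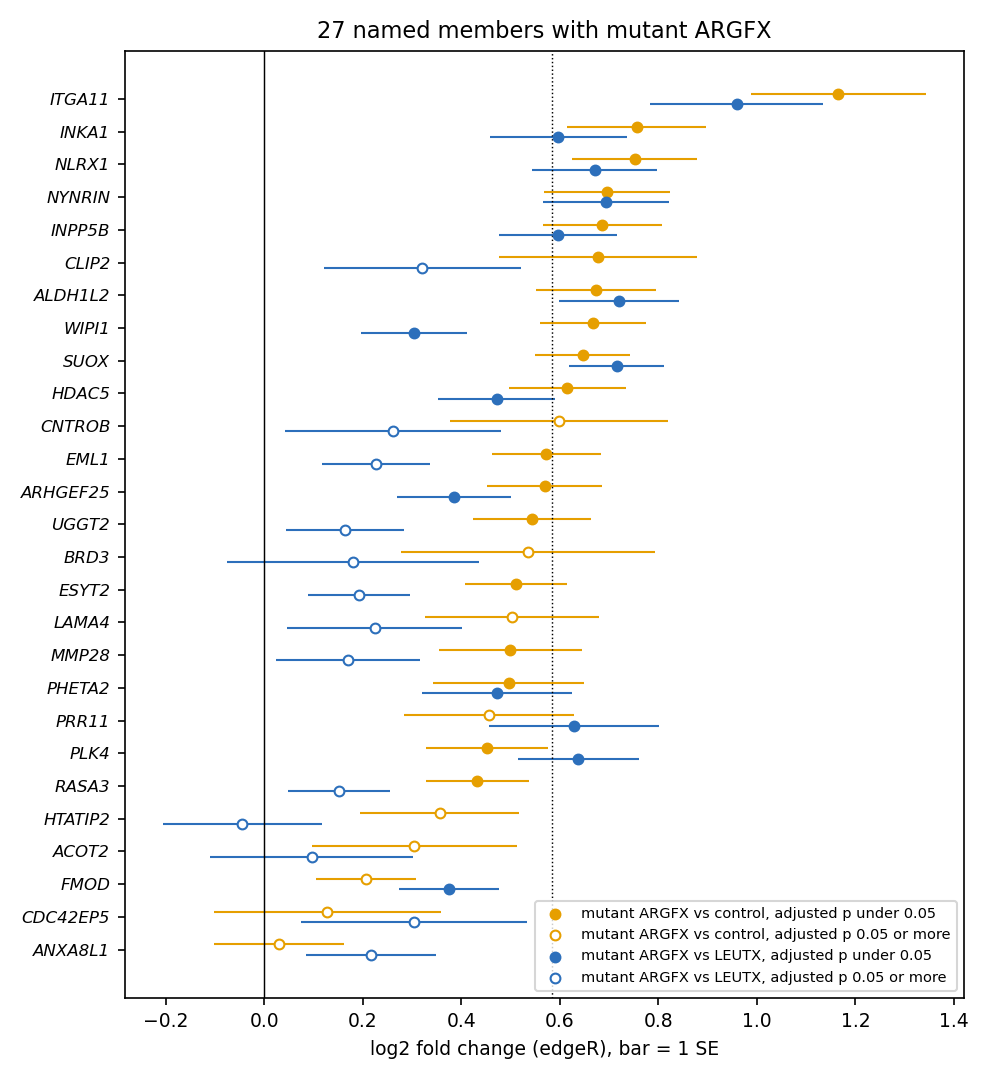
Log2 fold change (horizontal axis, with 1 SE as a bar) of mutant ARGFX against control (orange) and against LEUTX (blue) for the 27 named members (vertical axis, ordered by the first), with filled points at an edgeR adjusted p under 0.05 and a dotted line at a fold change of 1.5. Against control 18 are filled and against LEUTX 14, and ITGA11 stands farthest right in both. Some of the 27 were named for a high or low mutant fold change.

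Of these 27 named members, 18 rose with mutant ARGFX at an adjusted p under 0.05 in edgeR's quasi-likelihood test, and 14 were higher than with LEUTX. Some were named for a high or low mutant fold change, so these counts do not stand for the members. Over all 105 members the counts were 47 (44.8%, against 4.96% of the genes with a control mean of at least 5 CPM) and 40 (38.1%, against 22.4%). Symbols came from 220 genes of the study's own list of genes raised by WT ARGFX, and the 35 members with one had WT ARGFX ratios of at least 1.63. The other 8 members with a symbol, looked at after their values were known, had log2 fold changes of 0.35 to 0.64 with the mutant, and 6 of them passed at an edgeR adjusted p under 0.05. They include SMARCA1, the ATPase of an ISWI chromatin remodeller, which rose by 0.64 ± 0.11 (SE; edgeR adjusted p = 0.00183), and SNAI2, the zinc finger factor Slug, which rose by 0.37 ± 0.11 (SE; edgeR adjusted p = 0.0434).

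The 70 members without a symbol held 23 of the 47 that rose with mutant ARGFX at the adjusted p alone, and none of the 70 fell. ENSBTAG00000018546.7 stood at 13.5, 8.98, 12.1 and 9.91 CPM in the control samples, 19.9, 20.2, 19.3 and 14.2 with WT ARGFX and 17.9, 19.3 and 20.4 with mutant ARGFX. It rose with the mutant by 0.81 ± 0.13 (log2 fold change, SE; edgeR adjusted p = 0.000966). Its mutant mean of 19.2 CPM exceeded its WT ARGFX mean of 18.4, which WT ARGFX B (14.2 CPM) lowered. The other WT ARGFX samples all lay above that mutant mean. ENSBTAG00000002682.6 rose with the mutant by 0.74 ± 0.17 (SE; edgeR adjusted p = 0.0109), from 21.3 ± 5.50 to 34.9 ± 5.32 CPM (SD), with LEUTX at 26.3 ± 4.94. The most abundant member, also without a symbol, ranged from 505 to 1507 CPM among control samples and from 1144 to 1458 with mutant ARGFX, so the groups overlapped.

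The pathways around the named members were followed in gene lists, whose genes with an identifier all came from the list of genes raised by WT ARGFX. The genes counted were thus already selected for rising with WT ARGFX, the other genes of each list were not analysed here, and the counts do not describe the pathways. Counts are at both thresholds of edgeR's test, and no counted gene of the lists given here fell. Of all 220 genes with an identifier and a symbol, 74 (33.6%) rose past both thresholds with a median log2 fold change of 0.56, against 0.926% of the genes with a control mean of at least 5 CPM, and 33.6% is the share to set beside the counts. Of the 31 genes of collagens and collagen processing 13 had an identifier, and 6 of these rose, ITGA11 among them (median log2 fold change of the 13, 0.63). Of the 32 matrix glycoproteins and proteoglycans 13 had one, and 4 rose, with neither LAMA4 nor FMOD (median 0.50). Of the 32 genes of amino acid, one-carbon and mitochondrial metabolism 13 had one, and 7 rose, ALDH1L2 and SUOX included (median 0.63). Of the 25 actomyosin and contractile genes 14 had one, and 5 rose (median 0.60), without ARHGEF25, whose fold change was just under 1.5. Of the 13 tubulins and microtubule partners 9 had one, and 3 rose, CLIP2 among them (median 0.57). Of the 24 cell division genes 15 had one, and none rose past both thresholds (median 0.45). No list was tested against the others. Of the 19 interferon response genes only 2 had one, NLRX1 among them, which is too few to describe the list.

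The members were also set beside the other genes that WT ARGFX raised by the same rule. The 210 such genes above the LEUTX limit had a median mutant to control ratio of 1.43, and 52 of them (24.8%) rose with the mutant past both thresholds. The 56 such genes below it, with LEUTX under 0.8 times control, had a median ratio of 1.33, and 6 (10.7%) rose. The members lay between, at 1.40 and 18.1%. All 3 sets share their control samples, and no difference between them was tested.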

How the data were processed

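RNA-seq of 15 samples was used. The authors trimmed reads with Trimmomatic, pseudoaligned them with kallisto 0.46.1 to the ARS-UCD1.2 transcriptome with ETCHbox sequences added, and collected the estimates by gene with tximport. Values were deposited as unnormalized expected counts (21665 genes, 93.1% of values whole within 1e-06). The WT ARGFX columns whose header occurs more than once were used without a replicate number. Samples of the same group differed by more than sampling noise (smallest chi-square per degree of freedom 6.44 over 21 pairs).

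Expected counts were rounded and tested with edgeR 4.0.16 in R 4.3.3 (filterByExpr, TMM, glmQLFit and glmQLFTest in 1 fit to all 15 samples, Benjamini-Hochberg adjustment over 14264 genes), and genes were called at an adjusted p under 0.05 and a fold change over 1.5. The SE was the log2 fold change over the square root of F. Comparisons of WT ARGFX or LEUTX with control were used to choose the members and are described only. DESeq2 1.42.0, other size factors, filters, thresholds and left-out samples were the alternatives. Steps were tested on simulated data with the same spread set for every gene. Of 100 genes changed by a fold of 1.5, 92 were recovered at the adjusted p alone, and of 100 changed by 2, 100. There were 11 false calls. The spread was not taken from the members, so this recovery does not describe them. Depth per sample was 25947911 to 41554242 counts.

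The members, the gene lists and the tests were chosen with earlier results of these data known. Named members are those with a symbol among the 8 highest WT ARGFX ratios, the 8 highest and 4 lowest mutant fold changes, the 6 highest control means, up to 4 from each gene list and those nearest a limit of the rule, plus up to 2 identifiers that rose. Symbols came from 220 identifier and symbol pairs of the study's list of genes raised by WT ARGFX. These are fewer than the genes that the paper reports as raised, so the counts in the gene lists rest on part of them. Positions and promoters were not analysed here, and a further gene list is not reported here.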

Additional observations from a re-analysis of the deposited data

Results flagged for a closer look

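In the named members, the transfected genes in their own groups, the member medians and the total counts, 89 groups of 4 samples were searched for a sample that lies far from the other 3 relative to the range of the group, and 5 were found, where chance alone gives about 4.45. WT ARGFX sample B accounted for 4 of them. LAMA4 stood at 319 CPM in B and at 470 to 479 in the other WT ARGFX samples. NYNRIN stood at 22.03 CPM in B and at 33.7 to 34.2 in the others, and UGGT2 at 58.9 and at 72.1 to 73.1. ANXA8L1 went the other way, at 34.5 CPM in B and 32.0 to 32.4 in the others. The fifth was PHETA2 in LEUTX replicate 3, at 4.37 CPM against 5.43 to 5.64 in the other LEUTX samples.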

How the results depend on the processing

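The number of members depended on the limits of the rule: 182 with a control mean of at least 1 CPM, 67 with at least 10 CPM, 3 with WT ARGFX at least 2 times control, 53 with LEUTX within about 0.9 times control in either direction and 180 with medians for means (82 of them shared). On TMM-normalized CPM it was 131, with 77 shared, and 16 of the 131 rose with mutant ARGFX past both thresholds. Leaving out one sample gave 79 to 200. The count of members that rose with mutant ARGFX past both thresholds was 47 without the fold threshold, and 12 to 30 on leaving out one sample. The count above LEUTX was 40 without the fold threshold and 10 to 19 on leaving out one sample. No setting made a member count as fallen. The median log2 fold changes stayed at 0.44 to 0.56 over control and 0.29 to 0.38 over LEUTX.

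Of the 18 named members past the adjusted p with mutant ARGFX, 9 passed under all 22 alternatives. CLIP2, MMP28, PHETA2, PLK4 and RASA3, 5 in all, lost it on leaving out single samples. ARHGEF25, EML1, ESYT2 and UGGT2 kept it on leaving out any sample and failed 1 alternative each. For ARHGEF25, EML1 and ESYT2 this was a stricter edgeR test against a fold of 1.2. On leaving out one sample the log2 fold change of ANXA8L1 ran from -0.042 to 0.18, below 0 without control replicate 1 or 3 or mutant replicate 2, and that of CDC42EP5 from -0.068 to 0.28, below 0 without control replicate 3, and no value passed the threshold. With the replicate number as a block in the 13 numbered samples, 18 members rose over control and 12 stood above LEUTX, against 25 and 16 in those samples without it. Same-numbered samples did not deviate together (mean r 0.01 over 16 pairs, -0.30 to 0.37, and 5 of 13 samples correlated best with their own number), so the numbers were not taken as pairs.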
